A study of Mus musculus with 16 samples.

Results

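The subject here is the difference between brown and white fat in how gene expression differed between HuR-FKO and control mice. For each gene the effect of genotype in brown fat (BAT), HuR-FKO minus Ctrl, was set against the mean of the same effect in 2 white depots, epididymal (eWAT) and inguinal (iWAT) fat. The genes described are every protein-coding gene that reached a mean over 1 FPKM (fragments per kilobase of exon, scaled to the number of mapped fragments of the library) in 1 or more of the 6 groups, which are 13236 of 38371 gene IDs and of 21110 protein-coding IDs in the table. A positive difference means that HuR-FKO minus Ctrl was higher in BAT than in white fat, and all differences are on the log2(FPKM + 1) scale, which understates the change of genes with low values.

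RNA was sequenced from BAT, eWAT and iWAT of 12-week-old mice. HuR-FKO mice carried AdipoQ-Cre and homozygous floxed HuR alleles (AdipoQ-Cre;HuRf/f), and Ctrl mice were HuRf/f littermates, so that both groups carried the floxed alleles and only HuR-FKO mice carried Cre. There were 2 HuR-FKO and 2 Ctrl libraries of BAT, 3 and 3 of eWAT, and 3 and 3 of iWAT, 16 in all. For each library the RNA of 3 mice was pooled, so that the tests measure the spread between pools, not between single mice. The adiponectin promoter drives Cre in adipocytes, so other cells of a depot kept HuR, and whole depots were sequenced. In such bulk samples fewer cells of a type and less RNA per cell cannot be told apart.

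HuR, encoded by Elavl1, is an RNA-binding protein that binds AU-rich elements of mRNAs and is best known for stabilising them. Brown adipocytes burn fatty acids in many mitochondria and release the energy as heat through UCP1, whereas white adipocytes store triglyceride in a single large droplet and secrete adipokines. Inguinal fat can form thermogenic beige adipocytes, and epididymal fat rarely does. BAT lies beside skeletal muscle and its adipocytes share precursors with muscle, and muscle transcripts are often seen in BAT samples.

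Elavl1 itself was not lower in any depot of the libraries labelled HuR-FKO. It had 8.98 and 8.17 FPKM in BAT libraries labelled HuR-FKO, against 8.34 and 7.36 FPKM in Ctrl BAT libraries. In eWAT the values were 13.9, 15.4 and 13.3 FPKM in libraries labelled HuR-FKO and 13.6, 13.8 and 12.2 FPKM in Ctrl libraries, and in iWAT 16.5, 15.3 and 13.9 FPKM with the HuR-FKO label and 13.2, 15.8 and 12.4 FPKM in Ctrl. The groups overlapped in all 3 depots, and the difference between brown and white fat was -0.0039 ± 0.15 (SE). The paper reports, by real-time PCR and western blot, that HuR was lacking in BAT, eWAT and iWAT of HuR-FKO mice. The FPKM above are values of the whole gene, and which exons were removed is not given in the sources used here. So these FPKM do not check the labels of single libraries. All directions below therefore refer to the libraries labelled HuR-FKO. The paralogs Elavl2, Elavl3 and Elavl4, which are neuronal, had at most 0.443 FPKM in any library and were not tested.

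The depots carried their usual markers. Ucp1 ranged between 685 and 1165 FPKM in BAT, between 0.0717 and 0.881 FPKM in eWAT and between 8.33 and 182 FPKM in iWAT. Wt1, a marker of visceral fat, had at least 7.21 FPKM in eWAT and at most 0.0538 FPKM elsewhere. The BAT libraries stood apart from the white ones in ways that genotype does not share: protein-coding genes above 1 FPKM numbered 10442 to 10785 in BAT and 11948 to 12533 in white fat, FPKM of all rows summed to between 719411 and 796184 in BAT and between 3460326 and 12928419 in white fat, and 134 tested genes were listed at 0 in all 4 BAT libraries, 13 of them with a mean above 50 FPKM in white fat. The effect of genotype was therefore taken within each depot, and levels of different depots are described but were not tested against each other. Within BAT, the 2 Ctrl libraries were unlike each other in cell type markers: the summed sarcomere genes had 5762 FPKM in Ctrl replicate 1 and 3132 FPKM in Ctrl replicate 2, and the summed macrophage markers had 84.3 and 220.3 FPKM.

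No gene passed the test of a difference in the effect of genotype between brown and white fat. Of 13236 genes, 0 had a higher and 0 a lower difference at an adjusted p under 0.05 (limma over all 16 libraries, two-sided, Benjamini-Hochberg adjustment, percent called 0 in each direction), and the smallest adjusted p was 0.0566. At an unadjusted p under 0.05 there were 235 higher genes (1.78%) and 516 lower genes (3.9%), together 5.67% of the genes tested. The 95% interval of a difference, unadjusted, reached a median of 0.449 to either side, and the difference of 1.37 of Cox6b2 did not pass after adjustment. The same fit called 18 genes higher and 32 lower in BAT, 17 higher and 5 lower in eWAT, and 31 higher and 3 lower in iWAT, but a call in one depot and none in another was not a difference between them. Of all genes 54.0% had a difference below 0, with a median of -0.021. Counts of calls moved with the processing: scaling the libraries by median ratios gave 5 higher and 5 lower genes, and leaving out Ctrl BAT replicate 2 gave 7 higher and 15 lower.

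**Figure D1:**
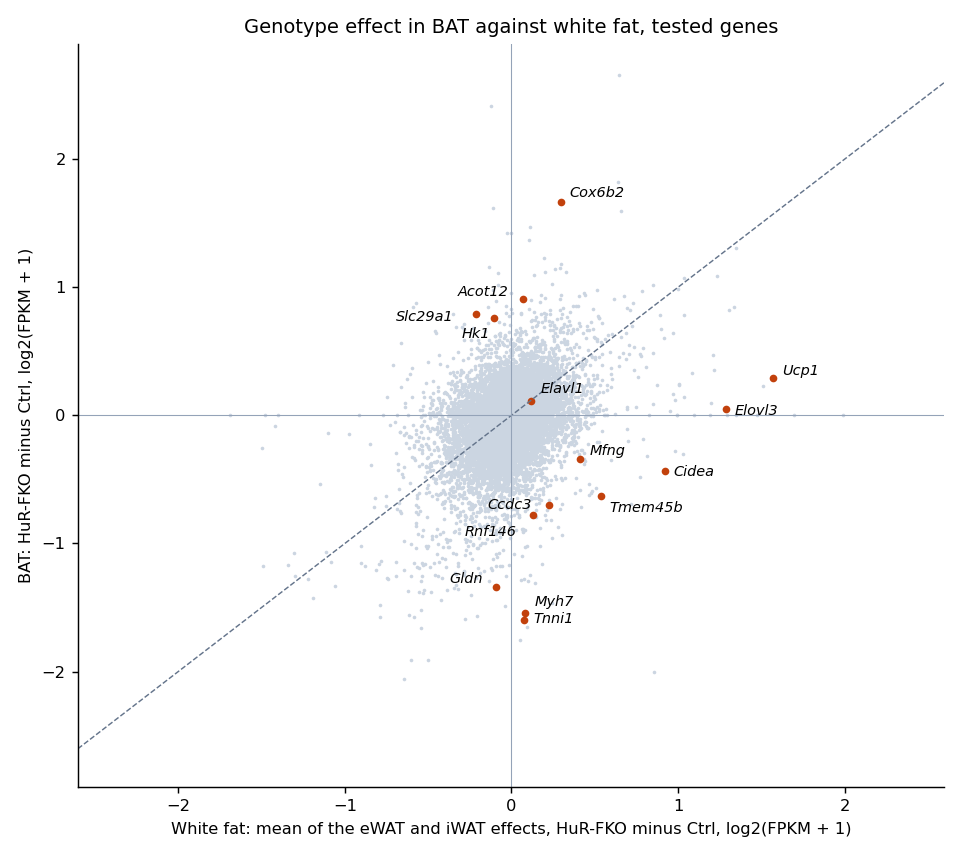
Effect of genotype (HuR-FKO minus Ctrl, log2(FPKM + 1)) in BAT on the vertical axis against the mean of the eWAT and iWAT effects on the horizontal axis, 1 grey point per gene for 13235 of 13236 tested genes, with 1 gene outside the axes. On the dashed line the effect is the same in brown and white fat; named genes are red, with Cox6b2 above the line by 1.37 and Gldn below it by a difference of -1.25.

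Genes with small p were named after their values were seen, since none passed the threshold, and not every gene between them in the order of p is described. Cox6b2, a cytochrome c oxidase subunit known mainly from testis (chromosome 7, 4751792 to 4753094, minus strand of mm10), came first. It had 18.4 and 16.7 FPKM in BAT libraries labelled HuR-FKO, against 4.17 and 5.61 FPKM in Ctrl BAT libraries. In eWAT it had 10.2, 8.73 and 8.51 FPKM in libraries labelled HuR-FKO and 7.31, 7.31 and 10.1 FPKM in Ctrl libraries, and in iWAT 6.53, 5.52 and 5.23 FPKM with the HuR-FKO label and 4.48, 3.73 and 3.68 FPKM in Ctrl. The groups were apart in the same direction in BAT and iWAT, by far more in BAT, and in eWAT they overlapped. Cox6b2 rose in BAT by 1.67 ± 0.17 (SE, adjusted p 0.000931), and its difference between brown and white fat was 1.37 ± 0.20 (95% interval 0.94 to 1.80, adjusted p 0.0566).

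Ccdc3, a protein secreted by fat and endothelium (chromosome 2, 5137776 to 5230878, plus strand), lay the other way. It had 16.1 and 14.7 FPKM in BAT libraries labelled HuR-FKO, against 24.6 and 26.6 FPKM in Ctrl BAT libraries. In eWAT libraries labelled HuR-FKO it had 21.9, 21.6 and 20.1 FPKM, all above the 16.5, 16.99 and 19.3 FPKM of Ctrl libraries, and in iWAT 29.5, 30.5 and 31.95 FPKM with the HuR-FKO label against 26.5, 24.005 and 30.05 FPKM in Ctrl, with overlap. Its fall in BAT passed the threshold (-0.70 ± 0.12, adjusted p 0.0221), and the difference was -0.93 ± 0.14 (95% interval -1.22 to -0.63, adjusted p 0.0566). In GENCODE, 69.1% of its exon bases are shared with Gm26776 on the opposite strand.

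Hk1, the housekeeping hexokinase (chromosome 10, 62268855 to 62379908, minus strand), had 12.9 and 13.3 FPKM in BAT libraries labelled HuR-FKO, against 8.23 and 6.49 FPKM in Ctrl BAT libraries. In both white depots its groups overlapped, in eWAT at 10.03, 10.5 and 9.75 FPKM with the HuR-FKO label and 10.5, 11.1 and 11.1 FPKM in Ctrl. The difference was 0.86 ± 0.14 (adjusted p 0.0764).

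Gldn, or gliomedin, a matrix protein of the node of Ranvier (chromosome 9, 54286486 to 54341786, plus strand), had 0.671 and 0.363 FPKM in BAT libraries labelled HuR-FKO, against 2.54 and 3.13 FPKM in Ctrl BAT libraries. It was below 1 FPKM in every white library, so little change could be seen there, and its difference was -1.25 ± 0.20 (adjusted p 0.0748). Rnf146, a ubiquitin ligase that recognises poly-ADP-ribosylated proteins (chromosome 10, 29344176 to 29362442, minus strand), had 40.8 and 42.2 FPKM in BAT libraries labelled HuR-FKO, against 68.3 and 75.5 FPKM in Ctrl BAT libraries, without overlap. The Rnf146 difference was -0.91 ± 0.15 (adjusted p 0.0764), and 70.2% of its exon bases are shared with Echdc1 on the opposite strand. P2ry2, a receptor for extracellular ATP and UTP, had 1.91 and 2.25 FPKM in BAT libraries labelled HuR-FKO, against 5.14 and 4.46 FPKM in Ctrl BAT libraries, and a difference of -0.98 ± 0.17 (adjusted p 0.112).

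4 further genes with small p were picked after their values were seen, all with BAT values that did not overlap. Acot12, a cytosolic acetyl-CoA thioesterase of liver, had 1.25 and 1.44 FPKM in BAT libraries labelled HuR-FKO, against 0.165 and 0.344 FPKM in Ctrl BAT libraries, and had at most 0.158 FPKM in white fat (difference 0.84 ± 0.16, adjusted p 0.192). Kng1, kininogen, had 3.48 and 2.77 FPKM in BAT libraries labelled HuR-FKO, against 0.617 and 0.905 FPKM in Ctrl BAT libraries (difference 1.03 ± 0.21, adjusted p 0.223). Both were higher in BAT and near 0 in most white libraries. Pld6, a mitochondrial phospholipase, had 0.359 and 0.292 FPKM in BAT libraries labelled HuR-FKO, against 1.301 and 1.51 FPKM in Ctrl BAT libraries (difference -0.85 ± 0.18, adjusted p 0.281). Gm10131, for which no function is given in the sources used here, had 1.38 and 1.23 FPKM in BAT libraries labelled HuR-FKO, against 4.86 and 4.14 FPKM in Ctrl BAT libraries (difference -1.22 ± 0.24, adjusted p 0.202). Within BAT the adjusted p of the 10 genes described from Cox6b2 on lay between 0.000931 for Cox6b2 and 0.0351 for Pld6, but they were picked by a test on the same libraries, so these calls are a description.

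**Figure D2:**
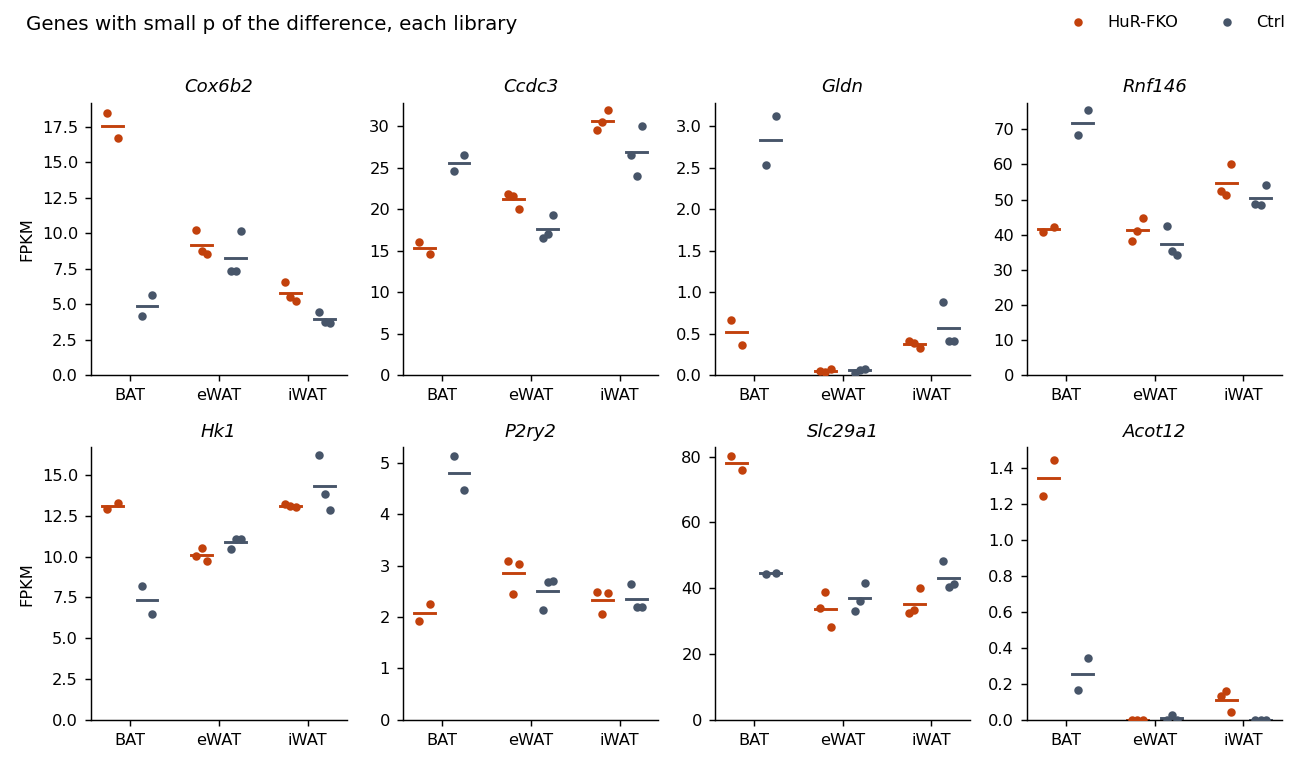
FPKM of 8 genes with small p values of the difference, 1 panel per gene and 1 point per library, with libraries labelled HuR-FKO left of Ctrl in each depot and bars at group means (n = 2 in BAT, 3 in eWAT and 3 in iWAT per group). In BAT the groups are apart in every panel, as for Cox6b2 at 18.4 and 16.7 against 4.17 and 5.61 FPKM, while most white groups overlap.

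A second way to look for opposite effects needs no model. Genes were counted whose libraries labelled HuR-FKO and Ctrl libraries did not overlap in any of the 3 depots. In a single depot, 1951 genes had all BAT libraries labelled HuR-FKO above Ctrl (14.7%) and 3200 had them below (24.2%), against 870 (6.57%) and 828 (6.26%) in eWAT and 742 (5.61%) and 1154 (8.72%) in iWAT, where there were more libraries. In the same direction in all 3 depots there were 88 higher (0.665%) and 107 lower genes (0.808%). In opposite directions there were 5 genes higher in BAT and lower in both white depots (0.0378%), and 9 lower in BAT and higher in both white depots (0.068%). Libraries can also lie apart in this way without an effect, and how many genes that would give was not tested.

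Of the 9, Mfng, a Fringe enzyme that modifies Notch receptors, had the smallest p. It had 7.27 and 9.52 FPKM in BAT libraries labelled HuR-FKO, against 10.6 and 11.1 FPKM in Ctrl BAT libraries. In eWAT it had 88.3, 99.2 and 79.8 FPKM in libraries labelled HuR-FKO and 62.7, 60.4 and 63.9 FPKM in Ctrl libraries, and in iWAT 54.4, 55.97 and 57.5 FPKM with the HuR-FKO label and 50.1, 40.8 and 43.3 FPKM in Ctrl. Mfng had a difference of -0.75 ± 0.15 (p 0.00023, adjusted p 0.218).

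Cidea, a lipid droplet protein abundant in brown adipocytes, had 1326 and 1181 FPKM in BAT libraries labelled HuR-FKO, against 1818 and 1569.8 FPKM in Ctrl BAT libraries. In eWAT the values were 9.14, 18.8 and 18.7 FPKM in libraries labelled HuR-FKO and 6.53, 6.22 and 6.595 FPKM in Ctrl libraries, and in iWAT 247, 323 and 192 FPKM with the HuR-FKO label and 156, 123 and 165 FPKM in Ctrl. So the gene was lower in BAT and higher in both white depots in every library, with effects of -0.43, 1.09 and 0.75 and a difference of -1.35 ± 0.33 (adjusted p 0.411). Tmem45b, a membrane protein, had 88.7 and 79.4 FPKM in BAT libraries labelled HuR-FKO, against 129 and 132 FPKM in Ctrl BAT libraries, and in eWAT 429, 364 and 295 against 280.4, 185 and 206 FPKM (difference -1.16 ± 0.24, adjusted p 0.229). Myom3, a myomesin of the sarcomere's M-band, had 4.01 and 3.99 FPKM in BAT libraries labelled HuR-FKO, against 7.93 and 5.67 FPKM in Ctrl BAT libraries, and in eWAT 3.69, 3.25 and 3.26 against 2.85, 1.64 and 2.19 FPKM (difference -1.09 ± 0.23, adjusted p 0.263). The same pattern held for Pepd, a dipeptidase of proline peptides (-0.73), Sh3glb2, an endophilin (-0.63), Entpd6, a nucleotide phosphatase (-0.33), the lymphocyte chemokine receptor Cxcr3 (-0.55) and Cabp4, a calcium-binding protein of photoreceptors (-0.61). The BAT groups could lie close together, as for Entpd6 at 6.36 and 6.53 FPKM with the HuR-FKO label and 6.58 and 6.61 FPKM in Ctrl.

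The 5 genes of the opposite kind were Plekhf1, an endosomal lipid-binding protein (0.83), 4930535I16Rik (1.23), Prr5, a subunit of mTORC2 (0.43), Aldh18a1, which makes the precursor of proline (0.56), and Vgll3, a TEAD cofactor (0.56). Plekhf1 had 7.66 and 9.699 FPKM in BAT libraries labelled HuR-FKO, against 5.496 and 7.199 FPKM in Ctrl BAT libraries, and in eWAT 5.87, 9.17 and 7.93 against 9.41, 12.1 and 10.9 FPKM. Adjusted p of all 14 genes lay between 0.218 for Mfng and 0.819 for Vgll3, so that none passed, and 50.9% of the exon bases of 4930535I16Rik are shared with Rragc on the opposite strand.

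Genes of brown adipocytes and thermogenesis were, as a group, below 0 in the difference. Of 28 listed genes 27 were tested, 19 were below 0 against 8 above, and their median was -0.29 against -0.021 for all genes. At an unadjusted p under 0.05 there were 7 lower genes and 1 higher, beside 3.9% and 1.78% of all genes, and none at the adjusted threshold. The medians of the effect in single depots were 0.13 in BAT, 0.10 in eWAT and 0.49 in iWAT. In iWAT 17 of 27 were higher in every library labelled HuR-FKO, in BAT 9 and in eWAT 4, beside 5.61%, 14.7% and 6.57% of all genes. With eWAT alone as white fat the median was -0.024, and with iWAT alone -0.68, so the group's position rested on iWAT. In eWAT 12 of the 27 genes had a mean under 1 FPKM.

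Elovl3, an elongase of very long fatty acids that is induced with brown fat activity, was the one gene whose effect differed between BAT and a single white depot. It had 74.9 and 66.1 FPKM in BAT libraries labelled HuR-FKO, against 88.9 and 51.9 FPKM in Ctrl BAT libraries. In iWAT it had 10.4, 14.2 and 15.8 FPKM in libraries labelled HuR-FKO, against 1.83, 1.24 and 1.88 FPKM in Ctrl libraries, and in eWAT at most 0.303 FPKM. BAT groups overlapped and iWAT groups were far apart. Its effect was 0.049 ± 0.24 in BAT and 2.44 ± 0.19 in iWAT (adjusted p 6.03e-05), and the difference between BAT and iWAT was -2.39 ± 0.31 (adjusted p 0.0229). Against the mean of both white depots the difference was -1.24 ± 0.27 (adjusted p 0.314), and against eWAT, where the gene was near 0, -0.085. Between BAT and eWAT 0 genes passed the threshold (smallest adjusted p 0.0579, 209 higher and 500 lower genes at an unadjusted p under 0.05), and between BAT and iWAT only Elovl3. The call of Elovl3 was lost with a pseudocount of 0.1, with median-ratio scaling and with a replicate block by number. It was also lost in 9 of the 16 fits that left out 1 library, namely without HuR-FKO BAT replicate 2, HuR-FKO eWAT replicate 3, Ctrl eWAT replicate 1 or 3, HuR-FKO iWAT replicate 2 or 3, or any of the 3 Ctrl iWAT libraries.

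Ucp1, the uncoupling protein of the inner mitochondrial membrane, had 1165 and 1000.1 FPKM in BAT libraries labelled HuR-FKO, against 1138 and 685 FPKM in Ctrl BAT libraries. In iWAT it had 139, 182 and 101 FPKM in libraries labelled HuR-FKO and 25.3, 8.33 and 21.6 FPKM in Ctrl libraries. The low Ctrl value in BAT was that of replicate 2, and the iWAT groups did not overlap. Ucp1 rose in iWAT by 2.96 ± 0.34 (adjusted p 0.00201) with an effect of 0.29 ± 0.42 in BAT, and the difference between brown and white fat was -1.28 ± 0.48 (95% interval -2.31 to -0.26, adjusted p 0.74).

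Cpt1b, the muscle-type carnitine palmitoyltransferase, an enzyme of fatty acid entry into mitochondria, showed the same order. It had 278 and 284 FPKM in BAT libraries labelled HuR-FKO, against 256 and 219 FPKM in Ctrl BAT libraries. In iWAT it had 51.5, 66.6 and 35.9 FPKM with the HuR-FKO label against 15.7, 13.9 and 18.6 FPKM in Ctrl (difference -0.76 ± 0.27, adjusted p 0.706). In GENCODE 81.4% of its exon bases are shared with Gm44502 on the same strand. Adrb3, the adipocyte receptor for noradrenaline, had 50.1 and 29.8 FPKM in BAT libraries labelled HuR-FKO, against 107 and 47.7 FPKM in Ctrl BAT libraries with overlap, and 88.7, 71.4 and 98.1 against 67.3, 64.6 and 66.8 FPKM in iWAT without overlap (difference -1.15 ± 0.34, adjusted p 0.522). Ppargc1a, a coactivator of mitochondrial genes, had a difference of 0.018 ± 0.29, and its BAT values were 6.54 and 9.11 FPKM with the HuR-FKO label and 6.86 and 7.24 FPKM in Ctrl.

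A few members lay on the other side. Slc29a1, a nucleoside transporter that takes up adenosine and inosine in brown fat, had 80.2 and 75.8 FPKM in BAT libraries labelled HuR-FKO, against 44.4 and 44.6 FPKM in Ctrl BAT libraries. In iWAT it had 32.4, 33.3 and 40.2 FPKM in libraries labelled HuR-FKO, all below the 48.2, 40.3 and 41.2 FPKM of Ctrl libraries, and in eWAT the groups overlapped. It rose in BAT (adjusted p 0.0457), and the difference was 1.01 ± 0.18 (95% interval 0.63 to 1.39, adjusted p 0.113). Among 13 tested genes of heat production without UCP1, Ckb, the creatine kinase of the futile creatine cycle, rose in BAT (adjusted p 0.0376), with 25.3 and 35.7 FPKM in BAT libraries labelled HuR-FKO, against 12.6 and 12.7 FPKM in Ctrl BAT libraries. In iWAT it was also higher without overlap. Its difference was 0.89 ± 0.26 (adjusted p 0.522), and 11 of the 13 were below 0 with a median of -0.16. Fabp3, a fatty acid carrier, was higher in every library labelled HuR-FKO in both BAT (641 and 650.0 against 385 and 334 FPKM) and iWAT (41.9, 80.8 and 18.1 against 4.61, 4.92 and 8.34 FPKM), and its difference was -0.49 ± 0.62.

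**Figure D3:**
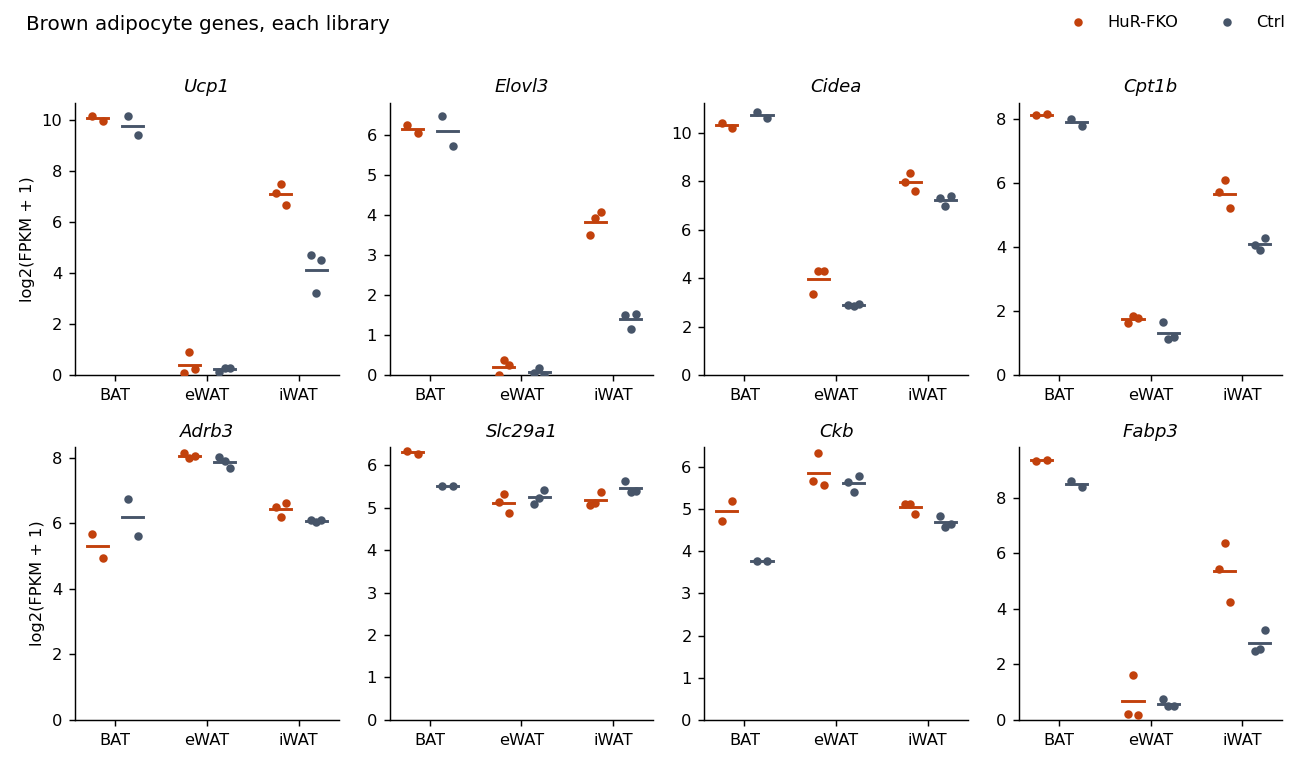
Expression of 8 brown adipocyte genes on the log2(FPKM + 1) scale, 1 point per library, libraries labelled HuR-FKO left of Ctrl in each depot, with bars at group means (n = 2 per group in BAT and 3 in each white depot). For Ucp1, Elovl3 and Cpt1b the groups are apart in iWAT and close in BAT, with iWAT effects of 2.96, 2.44 and 1.58.

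4 lists of nuclear-encoded mitochondrial genes also had medians below 0. Of 30 genes of fatty acid oxidation 20 were below 0 (median -0.14), with effects of 0.12 in BAT, 0.067 in eWAT and 0.43 in iWAT, and of 29 genes of the tricarboxylic acid cycle and related dehydrogenases 21 (median -0.12). Nuclear-encoded subunits of the respiratory chain were below 0 in 33 of 36 for complex I (median -0.13) and in 35 of 37 for complexes III to V (median -0.15). In iWAT all 36 complex I subunits had an effect above 0, with a median of 0.26, whereas in BAT 14 were above and 22 below. None passed the adjusted threshold, and at an unadjusted p under 0.05 there were 4, 2, 3 and 1 lower genes in these 4 lists and 0 higher, beside 3.9% lower and 1.78% higher of all genes. The complex I median ran from -0.32 to 0.035 when single libraries were left out, and it was above 0 only without Ctrl BAT replicate 1.

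Ndufa10 and Ndufa1, accessory subunits of complex I, had differences of -0.38 and -0.48, and Cox5b, of complex IV, -0.53. Atp5g1, of the rotor ring of ATP synthase, had 19.7 and 17.5 FPKM in BAT libraries labelled HuR-FKO, against 52.2 and 20.6 FPKM in Ctrl BAT libraries and a difference of -0.64 ± 0.31, which ran from -1.29 to 0.017 between single libraries left out. Among the oxidation enzymes, Acads, which oxidises short chains, had 197 and 178 FPKM in BAT libraries labelled HuR-FKO, against 219 and 222 FPKM in Ctrl BAT libraries and 93.7, 98.6 and 101 against 92.1, 74.5 and 89.5 FPKM in iWAT, so that its groups were apart in opposite directions in these depots (difference -0.36 ± 0.14, adjusted p 0.778). Idh3g, a subunit of isocitrate dehydrogenase, had 569.9 and 513 FPKM in BAT libraries labelled HuR-FKO, against 598 and 613 FPKM in Ctrl BAT libraries and 231, 236 and 205 against 183, 156 and 175 FPKM in iWAT (difference -0.39 ± 0.14). Hadhb, of the trifunctional protein, had a difference of -0.43, Acaa1b, a peroxisomal thiolase that may share reads with its paralog Acaa1a, -0.35, and Bckdha, of branched-chain oxoacid breakdown, -0.44. Of the exon bases of Bckdha 61.7% are shared with B3gnt8 on the opposite strand. Dlst, the transsuccinylase of 2-oxoglutarate dehydrogenase, fell in BAT (adjusted p 0.00358) and eWAT (adjusted p 0.00308) and was lower without overlap in iWAT, with 155 and 164 FPKM in BAT libraries labelled HuR-FKO, against 328 and 377 FPKM in Ctrl BAT libraries, and its difference was -0.36 ± 0.17 (adjusted p 0.876). Acadm, which oxidises medium chains, had a difference of 0.10 ± 0.16.

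The 13 subunits encoded by mitochondrial DNA were all below 0, with a median of -0.28, but 4 of them, including mt-Co1 and mt-Co3, were listed at 0 in all 4 BAT libraries, so that their BAT effect was 0 by the table and not by measurement. In white fat mt-Co1 had between 9225 and 22103 FPKM. Over the 9 subunits with values in BAT the median was -0.12, an alternative added after the data were seen. Among those 9, mt-Nd1 had 24958 and 25730.4 FPKM in BAT libraries labelled HuR-FKO, against 24973 and 19716 FPKM in Ctrl BAT libraries, with a difference of -0.28 ± 0.20, and mt-Nd4 a difference of -0.32 ± 0.22. The mitochondrial genes held 43.7 to 44.5% of summed protein-coding FPKM in BAT libraries labelled HuR-FKO and 37.7 to 39.2% in Ctrl BAT libraries. The share was also higher without overlap in both white depots. In iWAT it was 23.9 to 27.3% with the HuR-FKO label and 19.7 to 23.3% in Ctrl, and in eWAT 14.2 to 16.8% and 12.1 to 13.9%. The part of this share in the other results was not tested.

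Genes of lipid synthesis were mostly below 0, with a median effect below 0 in BAT alone. Among 25 enzymes that make fatty acids and triglyceride 22 were below 0 (median -0.31), 4 of them at an unadjusted p under 0.05, beside 3.9% of all genes. Their median effects were -0.30 in BAT, 0.084 in eWAT and 0.033 in iWAT. In BAT 15 of 25 were lower in both libraries labelled HuR-FKO than in both Ctrl libraries, beside 24.2% of all genes. Pnpla3, an acylglycerol lipase and transacylase induced by feeding, had 65.4 and 54.7 FPKM in BAT libraries labelled HuR-FKO, against 162 and 176 FPKM in Ctrl BAT libraries. It was lower without overlap in all 3 depots, with effects of -1.48, -0.66 and -0.92, and a difference of -0.69 ± 0.21 (adjusted p 0.574). Dgat1, which makes triglyceride, had 103 and 87.2 FPKM in BAT libraries labelled HuR-FKO, against 129 and 106 FPKM in Ctrl BAT libraries and 152, 133 and 174 against 131, 123 and 126 FPKM in iWAT, where the order was reversed (difference -0.53 ± 0.19, adjusted p 0.706). Acss2, which makes acetyl-CoA from acetate, had 158 and 165 FPKM in BAT libraries labelled HuR-FKO, against 361 and 310.4 FPKM in Ctrl BAT libraries (difference -0.998 ± 0.46), and Agpat2, of phosphatidate synthesis, a difference of -0.69 ± 0.31. Dgat2, which also makes triglyceride, and Pck1, of glyceroneogenesis, had differences of -0.20 ± 0.28 and -0.31 ± 0.71.

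Genes of cholesterol synthesis and uptake were mostly below 0. Of 20 tested genes 16 were below 0 with a median of -0.43, and the effects were -0.44 in BAT, -0.064 in eWAT and -0.036 in iWAT. In BAT 14 of 20 were lower without overlap, in eWAT 1 and in iWAT 0, beside 24.2%, 6.26% and 8.72% of all genes. At an unadjusted p under 0.05 5 were lower and 1 higher, beside 3.9% and 1.78%, and none passed after adjustment. The median ran from -0.53 to -0.35 when single libraries were left out.

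Sqle, squalene epoxidase, a rate-controlling enzyme of sterol synthesis, had 6.43 and 8.38 FPKM in BAT libraries labelled HuR-FKO, against 15.5 and 14.03 FPKM in Ctrl BAT libraries, and 9.71, 8.02 and 6.24 against 10.7, 7.89 and 6.67 FPKM in iWAT (difference -0.85 ± 0.32, adjusted p 0.759). Nsdhl, of sterol demethylation, had 18.9 and 17.1 FPKM in BAT libraries labelled HuR-FKO, against 35.4 and 27.9 FPKM in Ctrl BAT libraries (difference -0.79 ± 0.30), and Pmvk, of the mevalonate pathway, 53.5 and 48.4 FPKM in BAT libraries labelled HuR-FKO, against 93.4 and 77.1 FPKM in Ctrl BAT libraries (difference -0.57 ± 0.23). In eWAT and iWAT all 3 genes overlapped between groups. Insig2, which retains the SREBP escort protein in the endoplasmic reticulum and so holds back sterol synthesis, lay the other way, with 17.8 and 25.7 FPKM in BAT libraries labelled HuR-FKO, against 11.9 and 13.2 FPKM in Ctrl BAT libraries (difference 0.81 ± 0.29, adjusted p 0.709). Insig1, the related insulin-induced gene and a HuR target of the study, was added after its values were seen. It had 105 and 144 FPKM in BAT libraries labelled HuR-FKO, against 184 and 194 FPKM in Ctrl BAT libraries, and effects of -0.62 in BAT, -0.24 in eWAT and -0.39 in iWAT, with a difference of -0.31 ± 0.24.

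Genes of adipocyte identity were below 0 in 29 of 39 (median -0.18), with 6 lower at an unadjusted p under 0.05, beside 3.9% of all genes. The median ran from -0.27 to -0.079 when single libraries were left out, lowest without Ctrl BAT replicate 1 and highest without Ctrl BAT replicate 2. Rbp4, the retinol carrier secreted by fat and liver, had 43.4 and 48.8 FPKM in BAT libraries labelled HuR-FKO, against 120.1 and 119.9 FPKM in Ctrl BAT libraries. It fell in BAT by 1.36 on this scale (adjusted p 0.00358), with effects of -0.42 in eWAT and -0.35 in iWAT, and a difference of -0.98 ± 0.21 (95% interval -1.42 to -0.54, adjusted p 0.237). Cfd, adipsin, had 406 and 720.1 FPKM in BAT libraries labelled HuR-FKO, against 780.5 and 1030.4 FPKM in Ctrl BAT libraries, and Slc2a4, the insulin-regulated glucose transporter, 179.9 and 163 FPKM in BAT libraries labelled HuR-FKO, against 239 and 240.2 FPKM in Ctrl BAT libraries, with differences of -1.02 ± 0.34 and -0.44 ± 0.15. The general adipocyte genes Pparg and Fabp4 had differences of 0.039 ± 0.24 and -0.18 ± 0.26, each smaller than its SE. The authors also measured some fat genes in BAT by real-time PCR, namely Ucp1, Ppargc1a, Fabp3, Pparg, Fabp4, Acadm, Dgat1, Dgat2 and Pck1. In the difference between brown and white fat, 6 of these were below 0 and 3 above, with a median of -0.20. Within BAT, where the PCR was done, 7 had an effect above 0 and 2 below, with a median of 0.23. The median effect was 0.18 in eWAT and 0.45 in iWAT.

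**Figure D4:**
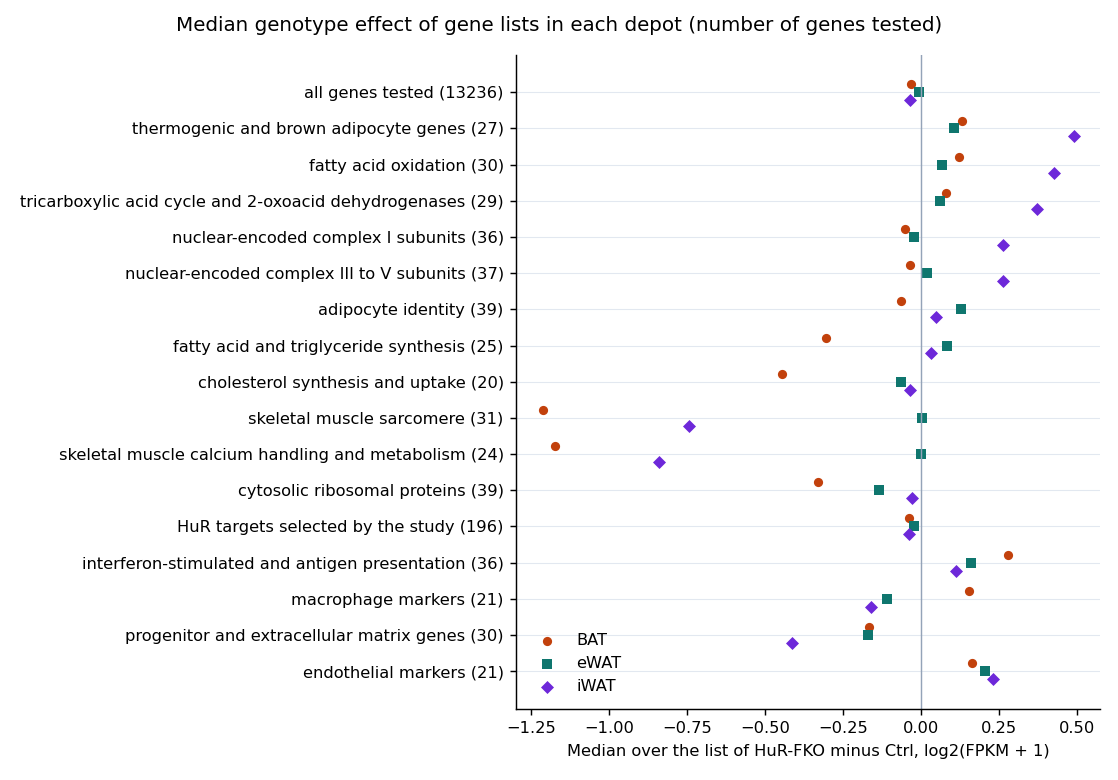
Median effect of genotype (HuR-FKO minus Ctrl, log2(FPKM + 1)) over the tested genes of 16 lists and of all genes, in BAT (circles), eWAT (squares) and iWAT (diamonds), with the number of genes in brackets. Oxidative lists lie highest in iWAT, as for fatty acid oxidation at 0.43 against 0.12 in BAT, lipid synthesis lists lie lowest in BAT, and muscle lists lie below 0 in BAT and iWAT.

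The 3 muscle lists had medians further below 0 than all genes, and their size depended on Ctrl BAT replicate 1. Of 31 tested sarcomere genes 27 were below 0 (median -0.75). At an unadjusted p under 0.05 7 were lower, beside 3.9% of all genes, with none past the adjusted threshold. Genes of muscle calcium handling and metabolism were below 0 in 23 of 24 (median -0.64) and regulators of muscle formation in 7 of 9 (median -0.48). Without Ctrl BAT replicate 1 these 3 medians were -0.28, -0.20 and -0.23. The sarcomere effect was -1.21 in BAT, 0.0031 in eWAT and -0.74 in iWAT, and all 31 genes were lower without overlap in BAT, beside 24.2% of all genes, with 0 in iWAT. In eWAT 21 of the 31 genes had a mean under 1 FPKM, a level at which the scale can show little change.

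The amount of muscle RNA itself differed between libraries. Summed FPKM of the 31 sarcomere genes was 1865 and 1804 in BAT libraries labelled HuR-FKO, against 5762 and 3132 in Ctrl BAT libraries. In iWAT it was 103, 384 and 923 with the HuR-FKO label and 560.1, 674 and 3385 in Ctrl, with the highest value in Ctrl replicate 3, and in eWAT it lay between 113 and 137 in all 6 libraries. The muscle transcription factors Myod1, Myog and Myf6 were listed at 0 in every eWAT library and above 0 in some libraries of BAT and of iWAT in both genotypes. Whether muscle beside the depot or muscle genes within its cells gave these sums cannot be told apart here, and their part in the other BAT values was not tested. The median difference of the sarcomere list was -1.04 without Ctrl iWAT replicate 3.

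Of the sarcomere list, 3 genes of slow muscle had small p. Tnni1, slow troponin I, had 12.2 and 11.3 FPKM in BAT libraries labelled HuR-FKO, against 66.2 and 21.1 FPKM in Ctrl BAT libraries, and at most 0.473 FPKM in any white library (difference -1.67 ± 0.39, adjusted p 0.354). Myh7, slow myosin heavy chain, had 7.53 and 14.7 FPKM in BAT libraries labelled HuR-FKO, against 54.2 and 19.7 FPKM in Ctrl BAT libraries (difference -1.63 ± 0.40, adjusted p 0.411). Myl2, slow myosin light chain, had 29.5 and 32.7 FPKM in BAT libraries labelled HuR-FKO, against 171 and 44.7 FPKM in Ctrl BAT libraries (difference -1.71 ± 0.57, adjusted p 0.668). In all 3 the 2 groups did not overlap, Ctrl replicate 1 was far above Ctrl replicate 2, and the white libraries were low, with Myl2 at most at 1.73 FPKM, so the difference was close to the BAT effect alone. Without Ctrl BAT replicate 2 these 3 genes passed the threshold (adjusted p 0.000558 for Tnni1), and without Ctrl BAT replicate 1 they did not (adjusted p 0.467 for Tnni1).

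Other muscle genes were also lower in BAT without overlap. Myh2, the fast IIa myosin, had 6.66 and 10.2 FPKM in BAT libraries labelled HuR-FKO, against 23.3 and 22.9 FPKM in Ctrl BAT libraries, and 0.123, 1.699 and 8.62 against 2.702, 3.86 and 16.8 FPKM in iWAT with overlap, and its difference was -0.82 ± 0.88. Casq1, calsequestrin of fast fibres, had 20.6 and 23.5 FPKM in BAT libraries labelled HuR-FKO, against 67.5 and 44.6 FPKM in Ctrl BAT libraries and a difference of -0.54 ± 0.995, with an interval from -2.67 to 1.59. Actn2, of the Z-disc, had 6.24 and 10.1 FPKM in BAT libraries labelled HuR-FKO, against 25.99 and 16.4 FPKM in Ctrl BAT libraries (difference -1.35 ± 0.45), Sln, sarcolipin, 2.66 and 5.47 FPKM in BAT libraries labelled HuR-FKO, against 11.5 and 15.5 FPKM in Ctrl BAT libraries (difference -1.36 ± 0.45), and Casq2, cardiac calsequestrin, 2.06 and 1.38 FPKM in BAT libraries labelled HuR-FKO, against 4.17 and 4.08 FPKM in Ctrl BAT libraries (difference -0.83 ± 0.24). Jph1, of the triad, had a difference of -0.74 ± 0.42, and the regulators Smyd1 and Mef2c -1.41 ± 0.51 and -0.77 ± 0.28. Smyd1 was lower in BAT, with 4.09 and 4.48 FPKM with the HuR-FKO label against 9.28 and 6.08 FPKM in Ctrl. In eWAT it was higher, with 5.65, 4.12 and 6.76 FPKM with the HuR-FKO label against 0.840, 0.930 and 0.578 FPKM in Ctrl. Its difference therefore holds both a fall in BAT and a rise in eWAT.

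A set of muscle genes was chosen by the study for real-time PCR on BAT, so their direction there is not independent evidence. All 9 of them were below 0, with a median of -0.82. Actc1, cardiac actin, had 1.55 and 1.52 FPKM in BAT libraries labelled HuR-FKO, against 4.196 and 10.3 FPKM in Ctrl BAT libraries (difference -1.32 ± 0.43, adjusted p 0.639), and Dmpk, the myotonic dystrophy kinase, 15.1 and 16.7 FPKM in BAT libraries labelled HuR-FKO, against 31.8 and 27.8 FPKM in Ctrl BAT libraries (difference -0.64 ± 0.20, adjusted p 0.619). Unlike most of the muscle list, Dmpk was abundant in white fat, with 86.1, 88.9 and 68.4 FPKM in eWAT libraries labelled HuR-FKO and 114, 94.1 and 86.99 FPKM in Ctrl. Mybpc1 had a difference of -1.45 ± 0.66, Myh1 -1.05 ± 0.78, Myom1 -0.78 ± 0.50, Myom2 -0.90 ± 0.79 and Des, desmin, -0.42 ± 0.41.

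**Figure D5:**
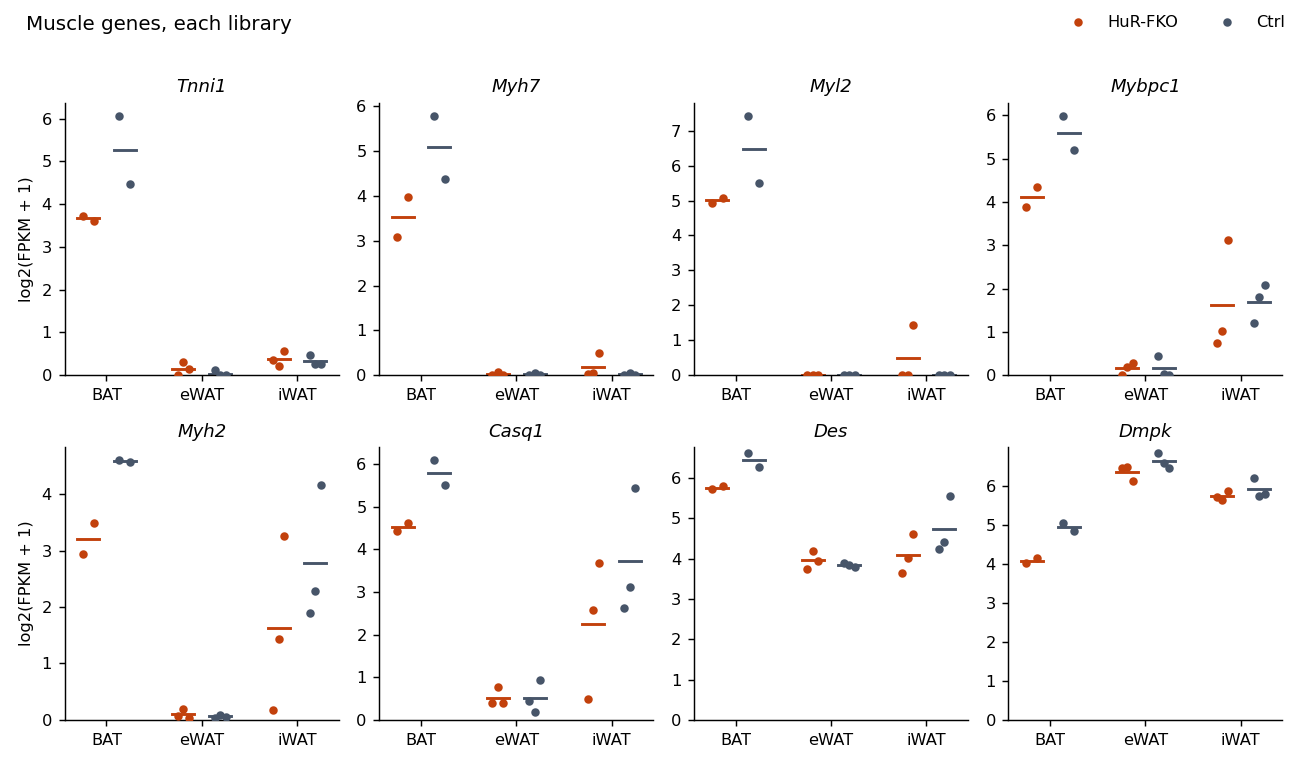
Expression of 8 muscle genes on the log2(FPKM + 1) scale, 1 point per library, libraries labelled HuR-FKO left of Ctrl in each depot, with bars at group means (n = 2 per group in BAT and 3 in each white depot). Slow genes (Tnni1, Myh7, Myl2) are seen almost only in BAT, fast genes (Myh2, Casq1) also in iWAT with a wide spread among libraries, and in BAT all 8 are lower with the HuR-FKO label, as for Des at 52.2 and 54.5 against 96.9 and 75.9 FPKM.

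Transcripts bound by HuR lay near all genes. Of 200 targets that the study selected by immunoprecipitation in eWAT, 196 were tested, 113 were below 0 (57.7%, beside 54.0% of all genes), and the median was -0.031 beside -0.021. At an unadjusted p under 0.05 4 were higher and 6 lower, beside 1.78% and 3.9% of all genes. The median effects were -0.038 in BAT, -0.022 in eWAT and -0.037 in iWAT, beside -0.031, -0.0049 and -0.035 for all genes. As3mt, an arsenite methyltransferase, had 9.92 and 10.01 FPKM in BAT libraries labelled HuR-FKO, against 5.11 and 4.77 FPKM in Ctrl BAT libraries (difference 0.71 ± 0.17, adjusted p 0.411), and Ampd3, an AMP deaminase, was lower without overlap in both white depots and overlapped in BAT, with 13.7 and 16.01 FPKM in BAT libraries labelled HuR-FKO, against 12.8 and 14.4 FPKM in Ctrl BAT libraries (difference 0.59 ± 0.18). Prpf38a, a splicing factor, had a difference of 0.42 ± 0.15, and Jkamp, a membrane protein that binds JNK, -0.43 ± 0.15.

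Proteins that bind the same AU-rich elements were above 0 in 5 of 12 (median -0.034). Tial1, a translational repressor of stress granules, had 20.1 and 20.3 FPKM in BAT libraries labelled HuR-FKO, against 24.6 and 27.6 FPKM in Ctrl BAT libraries (difference -0.41 ± 0.14, adjusted p 0.639), and Zfp36, which destabilises mRNAs, a difference of 0.32 ± 0.25. Cytosolic ribosomal proteins were below 0 in 37 of 39 (median -0.24), with effects of -0.33 in BAT, -0.13 in eWAT and -0.03 in iWAT, and 31 were lower without overlap in BAT, 0 in eWAT and 0 in iWAT, beside 24.2%, 6.26% and 8.72% of all genes. Rpl6 had 119 and 120.0 FPKM in BAT libraries labelled HuR-FKO, against 157 and 159 FPKM in Ctrl BAT libraries (difference -0.31 ± 0.14) and Rps9 244 and 241 FPKM in BAT libraries labelled HuR-FKO, against 338 and 323 FPKM in Ctrl BAT libraries (difference -0.36 ± 0.18), and reads of such genes may be shared with processed pseudogenes. Mitochondrial ribosomal proteins had a median of 0.018, with Mrps9 at 0.33 ± 0.15 and Mrps10 at -0.33 ± 0.16.

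Several stress and signalling lists had medians above 0. Immediate early genes were above 0 in 14 of 20 (median 0.21). Jun had 23.1 and 23.1 FPKM in BAT libraries labelled HuR-FKO, against 14.7 and 13.99 FPKM in Ctrl BAT libraries (difference 0.59 ± 0.20), and Fosb 1.36 and 4.03 FPKM in BAT libraries labelled HuR-FKO, against 0.0991 and 0.626 FPKM in Ctrl BAT libraries (difference 1.26 ± 0.56). Interferon-stimulated and antigen presentation genes were above 0 in 25 of 36 (median 0.13), with effects of 0.28 in BAT, 0.16 in eWAT and 0.11 in iWAT, and their median ran from 0.02 to 0.30 when single libraries were left out, lowest without HuR-FKO BAT replicate 2. Iigp1, an interferon-inducible GTPase, was higher without overlap in every depot, with 15.01 and 18.6 FPKM in BAT libraries labelled HuR-FKO, against 3.93 and 5.97 FPKM in Ctrl BAT libraries (difference 0.94 ± 0.27, adjusted p 0.522), and so was Gbp2 (difference 0.49 ± 0.19).

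Heat shock genes had a median of 0.14, which ran from 0.0091 to 0.36 when single libraries were left out and was also lowest without HuR-FKO BAT replicate 2, with Hspa1b at 0.83 ± 0.36 and its near-identical copy Hspa1a at 0.80 ± 0.40, between which reads may be split, and Hspb8 at -0.55 ± 0.21. Glucocorticoid response genes had a median of 0.22 (0.13 to 0.53 with single libraries left out, lowest without HuR-FKO BAT replicate 2 and highest without HuR-FKO BAT replicate 1). In that list Hsd11b1, which regenerates active glucocorticoid, was lower without overlap in all 3 depots, with 50.9 and 66.97 FPKM in BAT libraries labelled HuR-FKO, against 148 and 209 FPKM in Ctrl BAT libraries (difference -0.78 ± 0.29, adjusted p 0.74), and Mt1 had a difference of 0.83 ± 0.54. Genes of ATF4 and the integrated stress response had a median of -0.07, with 9 of 20 above 0. The smallest p was that of Aldh18a1 (0.56), followed by Eif4ebp1 at -0.50 ± 0.17, Atf4 at -0.56 ± 0.27 and Fgf21 at -0.87 ± 0.46. With single libraries left out Fgf21 ran from -1.79 to 0.057 and Atf4 from -1.03 to -0.097, both highest without Ctrl BAT replicate 1. Clock genes had a median of -0.045, with Hlf at 0.64 ± 0.26 and Per3 at -0.27 ± 0.13. Cell cycle genes had 0.072, with Mcm7 at -0.22 ± 0.19 and Mcm5 at 0.32 ± 0.30.

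Markers of other cell types were compared in the same way, and none passed the adjusted threshold. Macrophage markers were above 0 in 16 of 21 (median 0.36), but their summed FPKM in BAT was 109 and 227 in libraries labelled HuR-FKO and 84.3 and 220.3 in Ctrl BAT libraries, and the median ran from -0.10 to 0.79 when single libraries were left out, lowest without Ctrl BAT replicate 1. Lyve1 and Cd9 had differences of 1.10 ± 0.73 and 0.33 ± 0.25. Neutrophil and mast cell markers were above 0 in 11 of 12 (median 0.39), with Kit at -0.76 ± 0.32 and Fcer1a at 0.52 ± 0.24, and without Ctrl BAT replicate 1 their median was -0.11. Progenitor and matrix genes had a median of 0.15, with Fbn1 at 0.46 ± 0.28 and Cd34 at 0.45 ± 0.31, and the median ran from -0.38 to 0.55 between single libraries left out, lowest without Ctrl BAT replicate 1. In iWAT all 30 of them had an effect below 0, against 20 in BAT and 23 in eWAT.

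Endothelial markers had a median of 0.008, with Pecam1 at 0.33 ± 0.16 and Nos3 at -0.24 ± 0.13, and were above 0 in most genes of each depot, 17, 20 and 19 of 21. Smooth muscle markers had 0.17, with Cnn1 at 0.47 ± 0.24 and Tagln at 0.25 ± 0.20, Schwann cell markers 0.12, with S100b at -0.42 ± 0.29 and Cdh19 at 0.36 ± 0.28, and mesothelial markers 0.13, with Krt19 at 0.50 ± 0.37 and Krt7 at 0.29 ± 0.31. T cell markers had a median of -0.057, with Gzmb at -0.51 ± 0.26 and Ncr1 at -0.31 ± 0.22, and B cell markers -0.16, with Cd79a at -0.38 ± 0.59 and Fcer2a at -0.34 ± 0.56. Red cell genes had -0.28, with Hba-a1 at -0.31 ± 0.30 and Alas2 at -0.27 ± 0.27, and epithelial markers 0.11, with Krt10 at 0.26 ± 0.23 and Lcn5 at -0.55 ± 0.59. All 11 mesothelial, all 8 B cell and all 4 epithelial genes had means under 1 FPKM in BAT. So had 18 of 20 T cell and 13 of 19 cell cycle genes. In BAT Gzmb had at most 0.421 FPKM, Ncr1 0.135 FPKM and Fcer1a 0.149 FPKM, so little change could be seen there.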

How the data were processed

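RNA of 16 adipose tissue samples was sequenced. Per the study's methods, the authors made strand-specific paired-end libraries. TopHat 2.0.11 placed the reads on mm10, and Cufflinks 2.1.1 gave the FPKM per gene that the authors deposited. Whether the estimation used strand is not given in the sources used here. The table held 38396 rows and 38371 gene IDs. GENCODE vM21 listed 36464 of them and gave their names, biotypes, coordinates and exon overlaps. Groups were taken from the labels.

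The file gives no counts. From the steps between low values, depth was estimated at 16.1 to 18.0 M fragments in BAT and 9.51 to 15.0 M in white fat, with 73.9 to 76.2% and 46.7 to 54.5% of low values at whole steps (tolerance 0.05 on the log2 scale), so that reads were not recovered and no count model was used.

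For protein-coding genes whose mean exceeded 1 FPKM in any group, log2(FPKM + 1) was fitted with limma 3.58.1 in R 4.3.3, with 6 group means over 16 libraries, 10 residual degrees of freedom and a mean-variance trend, two-sided, with Benjamini-Hochberg adjustment over all genes and a threshold of 0.05. The contrast was (HuR-FKO minus Ctrl in BAT) minus the mean of the same in eWAT and iWAT. The fit was tested on simulated data in which 200 genes were changed in BAT. It found 71% of them at a log2 change of 1 and 99% at 2, so that some differences of 1 were missed. The simulation had independent noise, the same spread in every group and no effect of genotype in white fat. It therefore does not cover replicates as unlike as those of Ctrl BAT. Named genes were Elavl1 and its paralogs, genes past the threshold, those apart in opposite directions in brown and white fat, the 2 to 4 members of each list with the smallest p, and the genes that the study measured in BAT by real-time PCR. Others are named as chosen after their values were seen, and some genes that this rule names are not reported here. The genes, lists and tests were all chosen with earlier results of these data known. Alternatives were another pseudocount, other minimum levels, median-ratio scaling, replicate blocks, library weights, a fit without the trend, single white depots, all genes of the table and single libraries left out. Leaving out genes listed at 0 in BAT was added after the data were examined.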

Additional observations from a re-analysis of the deposited data

Results flagged for a closer look

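The effect on Elovl3 differed between BAT and iWAT, by -2.39 on the log2 scale (adjusted p 0.0229, limma), with BAT groups that overlapped and every iWAT library labelled HuR-FKO above every Ctrl iWAT library. No other gene passed this test. Without the minimum of FPKM the same test passed 9 genes, and with a pseudocount of 0.1, with median-ratio scaling, with a replicate block by number and in 9 of the 16 fits that left out 1 library it passed 0.

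In 14 genes every BAT library labelled HuR-FKO lay on one side of Ctrl and every white library labelled HuR-FKO on the other side, in both white depots. The differences of those lower in BAT were -0.75 for Mfng, -1.16 for Tmem45b, -1.09 for Myom3, -1.35 for Cidea, -0.73 for Pepd, -0.63 for Sh3glb2, -0.33 for Entpd6, -0.55 for Cxcr3 and -0.61 for Cabp4. Those higher in BAT were 0.83 for Plekhf1, 1.23 for 4930535I16Rik, 0.43 for Prr5, 0.56 for Aldh18a1 and 0.56 for Vgll3. None of the 14 passed the test of the difference (smallest adjusted p 0.218, for Mfng). Those lower in BAT were 0.068% of the genes tested and those higher in BAT 0.0378%. Within BAT alone, 24.2% of all genes were lower without overlap and 14.7% higher. How many genes would lie apart in this way without an effect was not tested. Cxcr3 in BAT ran between 0.0804 and 0.273 FPKM, and Vgll3 in BAT between 0.132 and 0.333 FPKM, so both were low there.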

How the results depend on the processing

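The main count of 0 genes in the difference between brown and white fat was also 0 with library weights, with eWAT alone as white fat, without genes listed at 0 in every BAT library (13102 genes, smallest adjusted p 0.0559) and with either replicate block. With a pseudocount of 0.1 it was 4 (2 higher and 2 lower), without a minimum of FPKM 11, with a minimum of 5 FPKM 2, with median-ratio scaling 10, without a trend 3, with iWAT alone as white fat 1 (Elovl3), 9 over all genes of the table, and at an adjusted p under 0.1 it was 5. Cox6b2 was among the genes called with the pseudocount of 0.1, both minimum settings, the scaling, the fit without a trend and all genes of the table. With single libraries left out it ran from 0 to 22: 22 without Ctrl BAT replicate 2 (among them Tnni1, Myh7, Myl2, Adrb3, Elovl3 and Atp5g1), 4 without Ctrl BAT replicate 1 (among them Hk1), 1 without HuR-FKO BAT replicate 1, 1 without Ctrl iWAT replicate 1 and 0 in all others. Within BAT the calls (50 in the fit reported) were 92 with the scaling, 82 with the replicate block by number, 123 at an adjusted p under 0.1 and 7 to 130 with single libraries left out. Within eWAT they were 7 with the replicate block within genotype, 43 with library weights, 38 at an adjusted p under 0.1 and 13 to 32 with single libraries left out, and within iWAT 2, 413, 59 and 6 to 58. Between BAT and eWAT the count was 1 with the pseudocount of 0.1, 9 without a minimum, 5 with the scaling, 5 without a trend, 4 over all genes of the table, 4 at an adjusted p under 0.1 and 0 to 7 with single libraries left out. Between BAT and iWAT it was 0 with the pseudocount, 9 without a minimum, 0 with the scaling, 0 with the replicate block by number, 5 over all genes and 0 to 12 with single libraries left out. The difference of Elavl1 was 0.0011 with the pseudocount of 0.1, 0.039 with the scaling, 0.0029 with the replicate block within genotype and 0.017 with eWAT alone. Ppargc1a had -0.093 with the pseudocount and -0.23 with eWAT alone. With eWAT alone Ucp1 had 0.11, Fabp3 0.76 and Pparg -0.018, and with iWAT alone Acadm had -0.23 and Casq1 0.20. With single libraries left out the sign also turned for Elavl1 (-0.084 to 0.076), Ppargc1a (-0.19 to 0.23), Pparg (-0.039 to 0.14), Atp5g1 (-1.29 to 0.017), Cd34 (-0.052 to 0.94), Cd9 (-0.030 to 0.70) and Fgf21 (-1.79 to 0.057). The cause of these changes was not tested. The median difference over all genes was 0.0055 with the scaling and -0.021 without it.

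Samples with the same number were checked for pairing. HuR-FKO and Ctrl libraries of one number correlated in their deviations from the group means by -0.26 to 0.244 in eWAT, 0.0243 to 0.386 in iWAT and 0.367 in BAT, where 2 libraries a group fix the size. Between eWAT and iWAT of 1 genotype, libraries of one number correlated by 0.192 to 0.276 in Ctrl (-0.163 to -0.0722 for unlike numbers) and by 0.0475 to 0.225 with the HuR-FKO label (-0.14 to 0.103). Not every pair was over 0.1, and the labels do not say that depots of one number came from the same mice, so no block entered the fit reported, and whether depots share mice was not tested. The replicate block within genotype gave 7 calls in eWAT and 2 in iWAT against 22 and 34 without it, and 0 in the difference either way. With the replicate block by number the smallest adjusted p was 0.088, and with the replicate block within genotype it was 0.0838. Depth estimated from the values was lowest in white fat, and with 2 BAT libraries a group the precision of each difference was limited mainly by BAT.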
